A study of Homo sapiens with 21 samples.

Results

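OCI-AML5 cells, an established human acute myeloid leukemia line, were profiled by poly(A) RNA sequencing, and the change described here is the step from 24 h to 48 h of exposure to UM171. The comparison takes the 3 libraries labelled UM171 48 h against the 3 labelled UM171 24 h, all from cells that carry no sgEPCR clone, which makes 6 of the 21 libraries of the series. Both groups received UM171, and their labels differ only in time. The labels give DMEM with serum and a dose of 500 nM, whereas the study's methods name MEM alpha with serum and GM-CSF for this line and its description of the time course gives a lower dose. No vehicle (DMSO) library enters the comparison. The 3 DMSO libraries are labelled 72 h, although the study's supplement places them at the start of the time course, and none was labelled 24 h or 48 h, so a further day of UM171 and a further day in culture cannot be told apart. The labels name no guide RNA for these cells and do not say whether replicates came from separate cultures, so p-values measure the spread between these libraries, which may be technical. The series describes the RNA as coming from sorted subsets without naming a gate for these libraries.

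UM171 is a small molecule that sustains the self-renewal of hematopoietic stem cells in culture, and it is known to direct the adaptor KBTBD4 to the LSD1-CoREST complex, a histone-demethylating corepressor of myeloid and lineage genes. NF-kB and AP-1 factors drive inflammatory transcription, whereas sterol-regulated factors drive the genes of cholesterol synthesis, and the aryl hydrocarbon receptor, a ligand-activated factor, drives CYP1A1 and its own repressor AHRR. Mast cells and basophils are granulocytes that store histamine and proteases and respond to interleukin-33 through the receptor IL1RL1. These roles are background and were not measured here.

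The 24 h libraries held 24286668 to 51540166 expected counts and the 48 h libraries 27279602 to 46338202. At 48 h, replicate 3 stood apart from its group, with 13.5% of its counts on mitochondrial genes against 7.73% to 8.75% in the other 5 libraries. It also had the lowest 48 h level of several genes with large rises, and results that rest on it are given with and without it. Levels below are TPM (a level scaled for transcript length and for depth), and fold changes are edgeR's, as 48 h over 24 h on a log2 scale with their standard error (SE). Myeloid identity markers were in place, with SPI1 at 220.5 ± 18.3 TPM at 24 h and 217 ± 15.8 TPM at 48 h and CD33 at 136 ± 4.55 TPM at 24 h and 146 ± 13.8 TPM at 48 h (SD, n = 3 each), while KIT, CD14 and CD4 did not pass the filter on low counts. Fewer cells of a type and less RNA per cell cannot be told apart in such bulk samples.

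Of 15417 genes tested, 276 changed by over 2-fold at an adjusted p under 0.0001, which is 1.79% of the genes tested. Of these, 251 were higher at 48 h (1.63% of the genes tested) and 25 were lower (0.162%). Among the 251 that rose, 78 rose by over 4-fold, 18 by over 16-fold, and 57 had a mean under 1 TPM at 24 h, whereas 24 reached 100 TPM or more at 48 h. Only 6 of the 25 that fell did so by over 4-fold. At a looser limit, an adjusted p under 0.05 with no minimum fold, the split was nearly even, with 3188 genes higher (20.7% of those tested) and 2801 lower (18.2%). These shares are the background for the list counts given at this limit below. The median log2 fold change over all tested genes was 0.00. With 3 libraries a group these numbers moved with single libraries, and between 105 (without replicate 1 of 24 h) and 269 (without replicate 3 of 48 h) of the 276 genes were called again when 1 of the 6 libraries was left out. In each of these fits all 276 kept their direction and an adjusted p under 0.05.

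**Figure D1:**
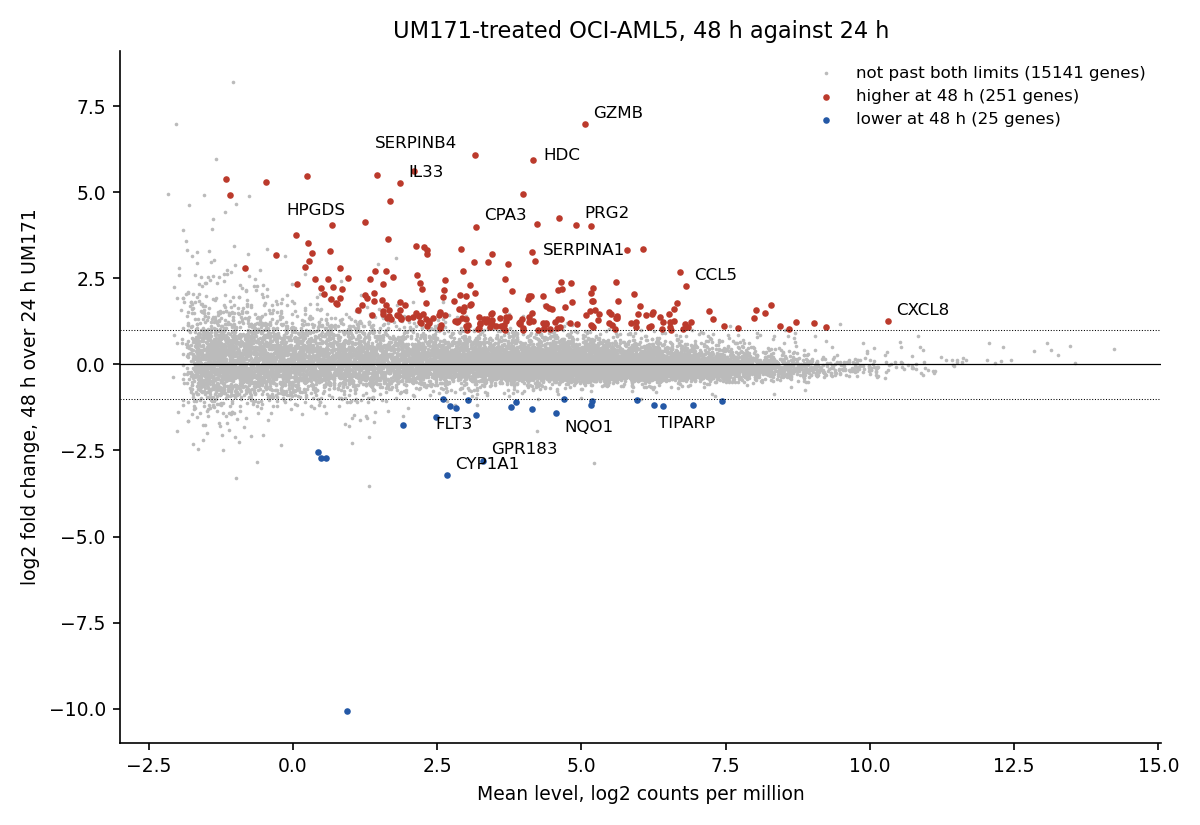
Each point is 1 of 15417 tested genes, with its mean level over the 6 libraries on the x axis (log2 CPM) and its change on the y axis (log2 fold change, 48 h over 24 h UM171). The 251 genes that rose (red) reach 6.97 at GZMB, and the 25 that fell (blue) are fewer and mostly smaller, with 1 point near the bottom for a readthrough transcript whose counts were 0 in every 48 h library.

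Tested genes on the mast cell, basophil and eosinophil list rose, and this list had the highest median change of the 46 lists. Of 21 genes on this list, 10 had enough counts to be tested, 6 of these rose past both limits and all 10 were higher at an adjusted p under 0.05. Their median log2 fold change was 2.01, against 0.00 over all tested genes. The next highest median, 1.36, was that of the stromal, endothelial and hepatic markers, of which 5 were tested. The upstream windows of CPA3 and of HPGDS, a prostaglandin D2 synthase of mast cells described with the eicosanoid genes, are shown. They were picked because both hold the core motif of GATA factors. GATA2 is on the mast cell list but was not called. The letters are the 250 bases before the annotated start, from RefSeq on GRCh38.p14, written 5′ to 3′ on the gene's strand, with AGATAA on either strand in capitals.

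CPA3 (chr3:148865046-148865295, plus strand): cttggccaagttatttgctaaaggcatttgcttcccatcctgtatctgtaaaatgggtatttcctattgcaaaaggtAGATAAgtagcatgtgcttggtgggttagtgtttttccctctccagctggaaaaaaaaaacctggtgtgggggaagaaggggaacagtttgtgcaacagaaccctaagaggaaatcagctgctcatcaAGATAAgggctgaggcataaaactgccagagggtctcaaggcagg

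HPGDS (chr4:94342837-94343086, minus strand): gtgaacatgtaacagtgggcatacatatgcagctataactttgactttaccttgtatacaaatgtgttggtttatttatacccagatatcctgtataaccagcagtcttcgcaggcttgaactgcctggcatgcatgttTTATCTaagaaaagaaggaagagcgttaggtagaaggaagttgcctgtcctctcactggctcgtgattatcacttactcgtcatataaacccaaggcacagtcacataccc

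In CPA3 the motif begins 173 and 45 bases before the start, and in HPGDS it lies on the other strand, 111 bases before it. AGATAA was found in 9.17% of 35116 such windows and in 1 of the 3 called genes of the mast cell list that have a window. These letters are a match of sequence, and binding was not measured.

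HDC, the enzyme that makes histamine from histidine, stood at 0.41, 0.38 and 0.82 TPM at 24 h and 37.5, 36.1 and 19.6 TPM at 48 h (log2 fold change 5.93 ± 0.22 (SE), adjusted p = 4.4e-07). It was 61.2-fold higher, and the groups were far from overlapping, although replicate 3 of 48 h had the lowest of the late values. CPA3, a carboxypeptidase of mast cell granules, stood at 1.15, 0.59 and 1.21 TPM at 24 h and 15, 14.9 and 17 TPM at 48 h (log2 fold change 4.0 ± 0.18 (SE), adjusted p = 9.1e-07). Unlike HDC, CPA3 was not low in replicate 3.

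PRG2, which encodes the major basic protein of eosinophil granules, stood at 4.6, 2.83 and 4.6 TPM at 24 h and 69.2, 67.5 and 48.3 TPM at 48 h (log2 fold change 4.06 ± 0.15 (SE), adjusted p = 4.4e-07). It lies at 57386780 to 57390650 on chromosome 11 (GRCh38) and shares its strand there with a readthrough gene, ENSG00000254979, whose mean went from 57.6 to 365 TPM, so the split of reads between them is uncertain. Unlike HDC and CPA3, PRG2 had a higher mean in DMSO (11.7 TPM) and at 6 h (6.74 TPM) than at 24 h, a difference that was not tested.

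The other called members were TPSAB1 and TPSB2, tryptases of mast cells, and ENPP3, an ectoenzyme used as a basophil marker. TPSAB1 stood at 18.7 ± 0.849 TPM at 24 h and 56.9 ± 5.56 TPM at 48 h (log2 fold change 1.68 ± 0.10 (SE), adjusted p = 3.0e-06) and ENPP3 at 1.14 ± 0.232 TPM at 24 h and 9.81 ± 1.51 TPM at 48 h (log2 fold change 2.96 ± 0.12 (SE), adjusted p = 5.0e-07). TPSB2, a near-identical copy of TPSAB1 with which it may exchange reads, had a log2 fold change of 2.00 ± 0.15. FCER1A, a chain of the high-affinity IgE receptor, changed by 2.02 ± 0.24 (adjusted p = 0.00023) and the transcription factor GATA2 by 0.84 ± 0.12 (adjusted p = 0.00056), both short of the stricter limit. Other defining markers stayed near 0 in both groups, with KIT at a mean of 0.01 and 0 TPM, CMA1 and TPSG1 listed at 0, and MS4A2 at a mean of 0.0267 and 0.0767 TPM. RNASE3, which encodes another eosinophil granule protein, was placed on the neutrophil granule list and was lower at the looser limit, as given below. Summed over the 21 genes the level was 145 to 194 TPM at 24 h and 357 to 451 TPM at 48 h. The count of 6 was the same without replicate 3 of either time, and it was 5 without replicate 1 or 2 of either time.

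**Figure D2:**
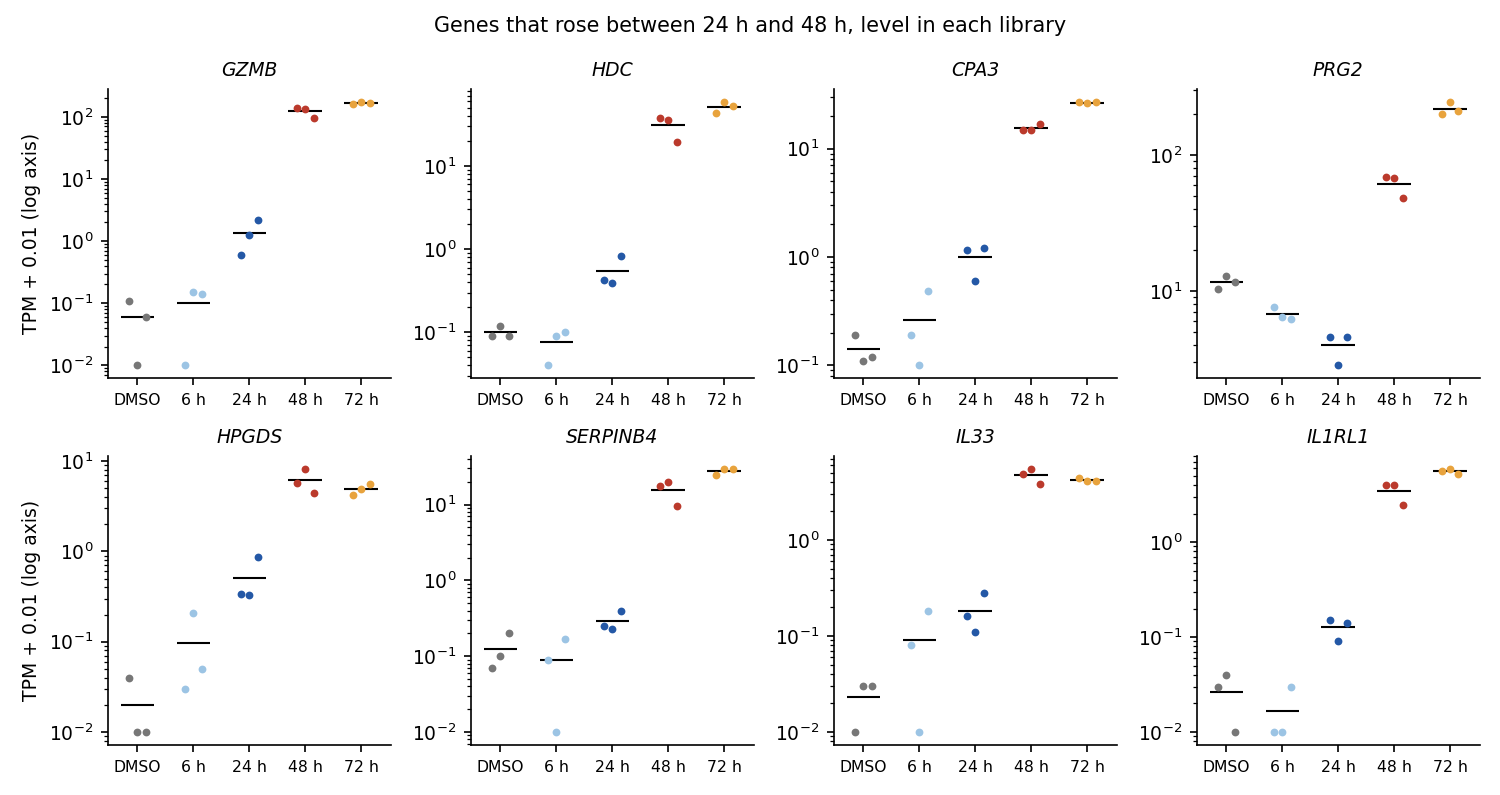
Each point is 1 library, with its level on a log axis (TPM + 0.01) for 8 genes that rose, and the line is the mean of 3 libraries. In each panel the 48 h libraries (red) lie above every 24 h library (blue), and PRG2 was higher in DMSO than at 24 h.

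The largest rise among the genes chosen for size and level was that of GZMB, which encodes the serine protease granzyme B of cytotoxic lymphocytes and plasmacytoid dendritic cells. GZMB stood at 0.58, 1.23 and 2.15 TPM at 24 h and 141, 134 and 96.9 TPM at 48 h (log2 fold change 6.97 ± 0.18 (SE), adjusted p = 3.3e-08), a rise of 125-fold. Its mean was 0.05 TPM in DMSO, 0.09 TPM at 6 h and 167 TPM at 72 h. The step from 24 h to 48 h was thus the largest between neighbouring times on the log scale. Of the 24 dendritic cell genes that were listed, 12 were tested and 2 were called, GZMB and NRP1, a semaphorin and VEGF coreceptor (1.46 ± 0.09), while CLEC4C, LILRA4, CD1A, CD1B and CD1C were at 0 in all 6 libraries.

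SERPINB4 and SERPINB3, neighbouring and near-identical inhibitors of cysteine and serine proteases, rose together. SERPINB4 stood at 0.24, 0.22 and 0.38 TPM at 24 h and 17.6, 19.7 and 9.46 TPM at 48 h (log2 fold change 6.09 ± 0.30 (SE), adjusted p = 1.2e-06). SERPINB3 changed by 5.63 ± 0.41, and reads that could belong to either were divided by the authors' counting. GJA1, the gap junction protein connexin 43, stood at 0.45, 0.34 and 0.90 TPM at 24 h and 16.7, 17.6 and 10.3 TPM at 48 h (log2 fold change 4.93 ± 0.25 (SE), adjusted p = 1.4e-06), with the lowest late value again in replicate 3.

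RGS5, a brake on G protein signaling, had the smallest standard error of this group. It stood at 2.69, 2.2 and 3.21 TPM at 24 h and 31, 38.6 and 29.5 TPM at 48 h (log2 fold change 4.24 ± 0.08 (SE), adjusted p = 6.5e-09). AQP9, a channel for water and glycerol, changed by 4.08 ± 0.23, GCSAML by 4.03 ± 0.16, and CYP19A1, the aromatase that makes estrogens, by 3.65 ± 0.27. Each of the 12 genes with the largest rises at 5 TPM or more (HDC, CPA3, PRG2, HPGDS and those just named) also had a higher mean at 72 h than at 24 h.

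A further 4 genes went from a mean under 0.1 TPM at 24 h to a detectable level. TNFRSF11B, the decoy receptor osteoprotegerin, stood at 0.03, 0.04 and 0.05 TPM at 24 h and 1.55, 2.71 and 0.94 TPM at 48 h (log2 fold change 5.46 ± 0.37 (SE), adjusted p = 7.8e-06). PMCH, the precursor of melanin-concentrating hormone, changed by 5.30 ± 0.47, the collagen gene COL8A1 by 3.53 ± 0.25, and RCAN2, an inhibitor of calcineurin, by 2.79 ± 0.28. No 48 h library exceeded 3.8 TPM in any of the 4, and their folds rest on few counts at 24 h.

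Cholesterol genes rose together. Of 28 genes of cholesterol synthesis and uptake, 27 were tested, 7 rose past both limits and 26 were higher at an adjusted p under 0.05. Their median log2 fold change was 0.85, and the only member with a negative value was PMVK, at -0.31 ± 0.13 (adjusted p = 0.092). The summed level was 1411 to 1511 TPM at 24 h and 2273 to 2705 TPM at 48 h, and 26 were higher at the looser limit without replicate 3 of 48 h as well. Past both limits there were 3 calls without replicate 1 of 24 h, in place of 7.

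The upstream window of MSMO1, a sterol methyl oxidase of the late pathway, is shown because it holds 4 copies of CCAAT, the box bound by NF-Y, a usual partner of sterol-regulated factors. The 250 bases before the start are from RefSeq on GRCh38.p14, with CCAAT on either strand in capitals.

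MSMO1 (chr4:165327419-165327668, plus strand): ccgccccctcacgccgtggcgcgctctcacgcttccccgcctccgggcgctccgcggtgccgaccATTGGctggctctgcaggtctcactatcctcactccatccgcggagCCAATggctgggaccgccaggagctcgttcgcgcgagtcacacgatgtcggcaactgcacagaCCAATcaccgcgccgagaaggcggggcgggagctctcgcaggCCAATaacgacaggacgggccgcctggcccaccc

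The copies begin 185, 139, 76 and 34 bases before the start, the first of them on the other strand. CCAAT was found in 32.0% of the 35116 windows and in each of the 6 called cholesterol genes with a window (INSIG1, MSMO1, DHCR7, HMGCS1, MVD and MVK). The sterol regulatory element itself, searched as a single fixed word, was found in 0.0342% of all windows and in 0 of these 6. That says only that its letters are not in these windows.

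INSIG1, which retains the sterol sensor in the endoplasmic reticulum and is itself induced when sterols are low, stood at 71.6, 63.5 and 76.2 TPM at 24 h and 203, 223 and 184 TPM at 48 h (log2 fold change 1.58 ± 0.07 (SE), adjusted p = 7.5e-07). MSMO1 stood at 29, 29 and 31 TPM at 24 h and 78.6, 88.1 and 75.9 TPM at 48 h (log2 fold change 1.51 ± 0.06 (SE), adjusted p = 6.5e-07), and DHCR7, the last reductase of the pathway, at 26.5, 26.2 and 29.4 TPM at 24 h and 77.1, 70 and 72.4 TPM at 48 h (log2 fold change 1.46 ± 0.08 (SE), adjusted p = 3.0e-06). None of the 3 genes overlapped between the groups, which was so for all 276 called genes. At 6 h the mean of INSIG1 was 26.1 TPM, against 70.5 TPM in DMSO.

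The mevalonate enzymes MVD (1.18 ± 0.08), MVK (1.13 ± 0.11) and HMGCS1 (1.09 ± 0.08) were also among the called genes. SQLE, the squalene epoxidase, rose from 86.8 to 147 TPM (log2 fold change 0.85 ± 0.06 (SE), adjusted p = 1.3e-05). Of the regulators, SREBF2 changed by 0.61 ± 0.06 and SREBF1 by 0.35 ± 0.09. The sterol exporters ABCG1 (0.98 ± 0.09) and ABCA1 (0.50 ± 0.06), which are driven by the opposite, sterol-loaded state, were also higher.

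**Figure D3:**
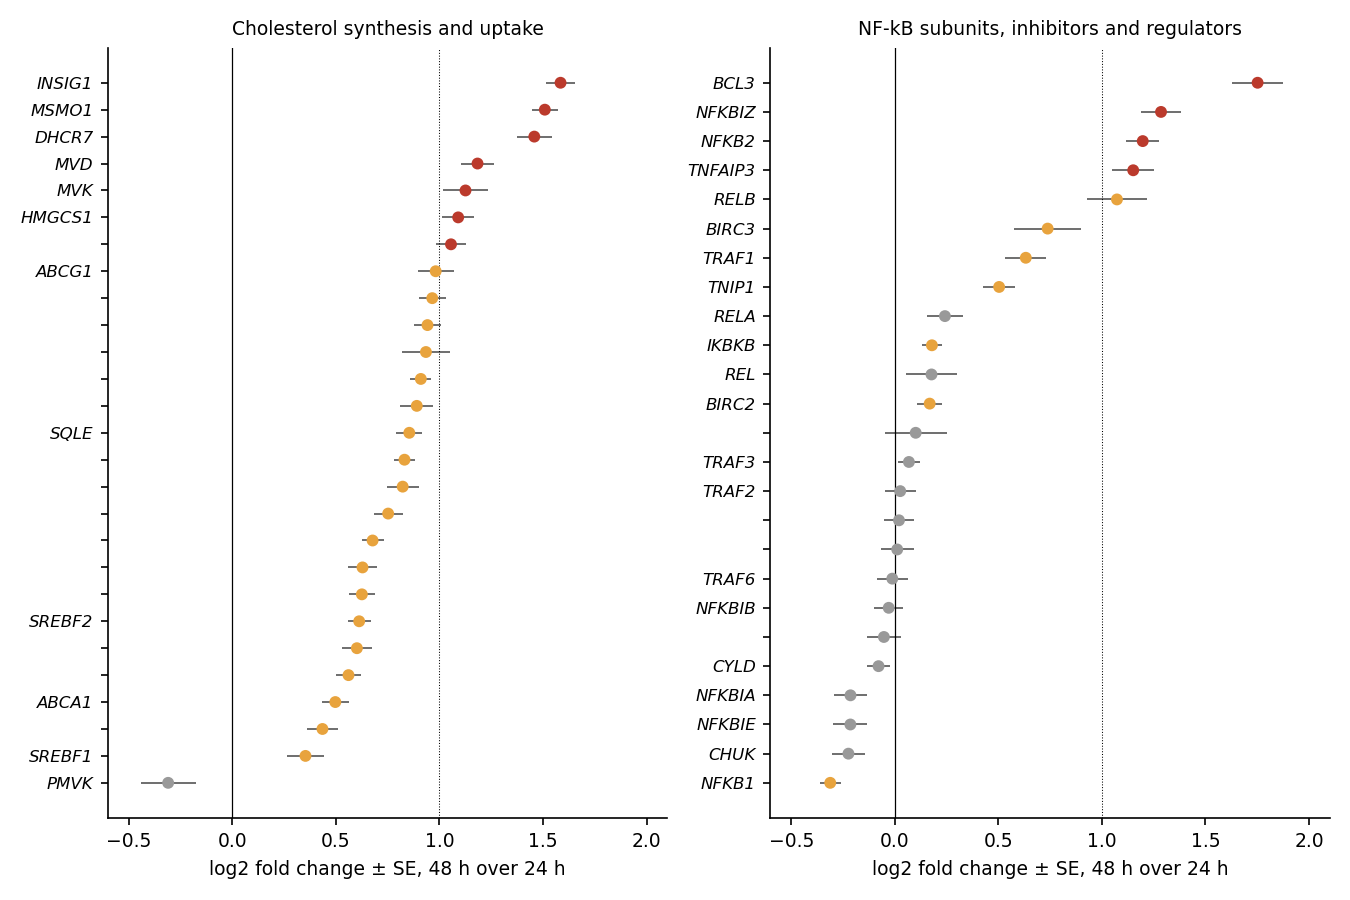
Each point is 1 tested gene of the cholesterol list (27 genes, left) or the NF-kB list (25 genes, right), with its log2 fold change (48 h over 24 h) and SE on the x axis; red passed both limits, orange an adjusted p under 0.05, and grey neither, and genes described in the text are labelled. All cholesterol genes but PMVK lie right of 0, whereas the NF-kB genes are spread around it.

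NF-kB genes moved in part only. Of 26 listed, 25 were tested and 4 rose past both limits, while 10 were higher and 1 was lower at an adjusted p under 0.05, with a median log2 fold change of 0.10. BCL3, a nuclear cofactor of p50 and p52, stood at 3.86, 2.99 and 5.31 TPM at 24 h and 12.2, 11.8 and 14.4 TPM at 48 h (log2 fold change 1.75 ± 0.12 (SE), adjusted p = 9.4e-06). NFKB2, the p100/p52 subunit of the noncanonical pathway, stood at 9.55, 9.51 and 12.3 TPM at 24 h and 23.6, 23.8 and 16.7 TPM at 48 h (log2 fold change 1.2 ± 0.08 (SE), adjusted p = 7.1e-06). NFKBIZ, another nuclear cofactor (1.29 ± 0.10), and TNFAIP3, the deubiquitinase A20 that terminates signaling (1.15 ± 0.10), were the other called members. None of the 4 overlapped between groups, which held for all 276 called genes and is not particular to this list. There was 1 call without replicate 1 of 24 h, and without replicate 2 or 3 of 24 h or replicate 1 or 2 of 48 h there were 2.

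The partner of p52, RELB, had a similar size of change but missed the limit on p, at 2.01 ± 0.0624 TPM at 24 h and 3.88 ± 0.497 TPM at 48 h (log2 fold change 1.07 ± 0.14 (SE), adjusted p = 0.00041). Smaller rises at an adjusted p under 0.05 were those of BIRC3 (0.74), TRAF1 (0.63), TNIP1 (0.50), IKBKB (0.18) and BIRC2 (0.17). NFKB1, the p105/p50 subunit, fell from 50 to 38 TPM (log2 fold change -0.31 ± 0.05 (SE), adjusted p = 0.0012). The remaining 14 members, among them RELA, REL, CHUK, NFKBIA, NFKBIB, NFKBIE, TRAF2, TRAF3, TRAF6 and CYLD, lay between -0.22 and 0.24 and did not pass an adjusted p of 0.05.

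In the interleukin-1 family the ligand IL33 and its receptor IL1RL1 rose together from levels near the floor. IL33 stood at 0.15, 0.10 and 0.27 TPM at 24 h and 4.84, 5.46 and 3.81 TPM at 48 h (log2 fold change 5.27 ± 0.24 (SE), adjusted p = 7.6e-07). IL1RL1, also known as ST2, stood at 0.14, 0.08 and 0.13 TPM at 24 h and 4.01, 4.01 and 2.45 TPM at 48 h (log2 fold change 4.74 ± 0.21 (SE), adjusted p = 7.6e-07). In both genes the lowest 48 h library was well above the highest 24 h library. IL1RL1 shares its strand with the overlapping IL18R1, which changed by 0.55 ± 0.10, so a part of the reads could belong to either.

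Of 27 genes of this family and the inflammasome, 19 were tested, 3 were called and 8 were higher and 3 lower at an adjusted p under 0.05, with a median of 0.14. The shares over all genes tested were 20.7% higher and 18.2% lower. The third called gene was NLRP1, an inflammasome sensor, at 0.727 ± 0.0666 TPM at 24 h and 2.58 ± 0.417 TPM at 48 h (log2 fold change 1.57 ± 0.15 (SE), adjusted p = 5.9e-05). IL1B, the inflammatory cytokine, stood at 33, 31.5 and 39.8 TPM at 24 h and 65, 63.4 and 47.2 TPM at 48 h (log2 fold change 0.81 ± 0.09 (SE), adjusted p = 0.00014), higher in every 48 h library but by less than 2-fold. Its antagonist IL1RN changed by 0.31 ± 0.07, the inflammasome sensor AIM2 by 2.60 ± 0.46 (adjusted p = 0.0021) at a mean under 1 TPM, and IL18RAP by 0.32 ± 0.06. CASP1, the interleukin-1 converting protease (-0.21 ± 0.06), NLRC4 (-0.58 ± 0.15) and IL18BP (-0.49 ± 0.11) were the 3 that were lower. The other 8, IL18, IL1R2, IL1RAP, NLRP3, PYCARD, CASP4, GSDMD and MEFV, lay between -0.05 and 0.69 and did not pass. With at least 10 counts required in every library 1 call was made in place of 3. Leaving out 1 library gave 2 calls, except that 3 were made without replicate 3 of 48 h.

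Chemokine genes rose in part. Of 32 chemokine and receptor genes 16 were tested, 3 were called and 10 were higher and 2 lower at an adjusted p under 0.05, with a median of 0.76. CXCL8 (interleukin-8), the most abundant after CCL2, stood at 713, 654 and 825 TPM at 24 h and 1783, 2012 and 1194 TPM at 48 h (log2 fold change 1.25 ± 0.13 (SE), adjusted p = 8.5e-05). CCL5, a T cell and eosinophil attractant, stood at 45.6, 49 and 55.5 TPM at 24 h and 242, 223 and 219 TPM at 48 h (log2 fold change 2.27 ± 0.09 (SE), adjusted p = 5.0e-07). CXCL3 changed by 1.43 ± 0.15, its relative CXCL2 by 0.44 ± 0.07 and CXCL1 by -0.04 ± 0.07 (adjusted p = 0.68). CCL2 rose from 1006 to 2162 TPM with a wide spread (log2 fold change 1.17 ± 0.15 (SE), adjusted p = 0.00035). The receptor CXCR4 was higher (0.81 ± 0.08), and CCR2, the receptor of CCL2 (-0.44 ± 0.07), and CXCR2, a receptor of CXCL8 (-0.64 ± 0.09), were lower. With GC content offsets, with total count scaling, or without replicate 1 or 2 of 24 h or replicate 1 or 2 of 48 h, 1 call was made in place of 3.

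Of 32 other cytokine and growth factor genes, 14 were tested and 2 were called, CSF1 and AREG, with 9 higher at an adjusted p under 0.05. CSF1, the growth factor of macrophages, stood at 0.75, 0.87 and 1.14 TPM at 24 h and 8.92, 8.24 and 5.82 TPM at 48 h (log2 fold change 3.21 ± 0.15 (SE), adjusted p = 1.0e-06). AREG, a ligand of the EGF receptor, stood at 1.35, 1.14 and 1.59 TPM at 24 h and 11.4, 13 and 9.98 TPM at 48 h (log2 fold change 3.20 ± 0.14 (SE), adjusted p = 6.5e-07). VEGFA rose from 30.8 to 51.9 TPM (adjusted p = 4.0e-05), and IL6, near the floor at a mean of 0.813 TPM at 24 h, changed by 1.90 ± 0.25 (adjusted p = 0.00042). Of the TNF superfamily, TNFSF10 (TRAIL) was the single called gene of 21 tested (1.09 ± 0.07), and the median of that list was 0.06.

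Immediate early factors were higher in part. Of 28 such genes, 25 were tested, 5 were called (EGR3, MAFF, ATF3, NR4A1 and NR4A2) and 18 were higher and 3 lower at an adjusted p under 0.05, with a median of 0.54. EGR3 stood at 1.1, 0.61 and 1.21 TPM at 24 h and 5.86, 5.75 and 4.95 TPM at 48 h (log2 fold change 2.71 ± 0.22 (SE), adjusted p = 2.5e-05). MAFF stood at 1.59, 1.6 and 1.84 TPM at 24 h and 4.27, 4.36 and 3.46 TPM at 48 h (log2 fold change 1.39 ± 0.12 (SE), adjusted p = 4.3e-05), and ATF3, a stress-induced partner of AP-1, changed by 1.37 ± 0.10. FOSB, at a mean of 0.553 ± 0.267 TPM at 24 h and 1.04 ± 0.312 TPM at 48 h, changed by 1.09 ± 0.24 (adjusted p = 0.0057), and its libraries overlapped. FOS itself was lower (-0.32 ± 0.07). With total count scaling there were 3 calls. Without replicate 2 of 48 h there were 0 calls at these limits, without replicate 1 or 2 of 24 h or replicate 1 of 48 h there was 1, and without replicate 3 of 24 h there were 2.

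A list named for feedback on ERK signaling, whose members do not all inhibit ERK itself, held 3 called genes of 18 tested. At an adjusted p under 0.05, 13 of them were higher. PHLDA1 stood at 5.49, 4.84 and 7.59 TPM at 24 h and 25.4, 26.8 and 18.7 TPM at 48 h (log2 fold change 2.06 ± 0.14 (SE), adjusted p = 8.7e-06), and the phosphatase DUSP16 and the inhibitor SPRY4 changed by 1.73 ± 0.11 and 1.71 ± 0.18. This list held 1 call without replicate 1 of 24 h. In the SOCS, PIM and STAT list none of 23 was called and 11 were higher at the looser limit, of which the kinase PIM1 was the most abundant, at 170.4 ± 14.1 TPM at 24 h and 307 ± 37.9 TPM at 48 h (log2 fold change 0.91 ± 0.06 (SE), adjusted p = 6.4e-06).

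Eicosanoid genes included 5 calls among 17 tested of 28 listed, with 9 higher and 4 lower at an adjusted p under 0.05 and a median of 0.37. All genes tested gave 20.7% higher and 18.2% lower at that limit. PTGS2, the inducible cyclooxygenase, stood at 6.71, 4.52 and 7.42 TPM at 24 h and 26.4, 24.5 and 18.1 TPM at 48 h (log2 fold change 1.83 ± 0.17 (SE), adjusted p = 5.0e-05). PTGS1, the constitutive cyclooxygenase, stood at 27.3, 25.9 and 28.4 TPM at 24 h and 52.8, 54.3 and 45.6 TPM at 48 h (log2 fold change 1.01 ± 0.06 (SE), adjusted p = 3.0e-06). HPGDS stood at 0.33, 0.32 and 0.85 TPM at 24 h and 5.75, 8.2 and 4.41 TPM at 48 h (log2 fold change 4.14 ± 0.24 (SE), adjusted p = 3.5e-06), with the widest spread of the 3 at 24 h. ALOX5AP, which presents arachidonate to 5-lipoxygenase, changed by 1.79 ± 0.12 and the leukotriene receptor CYSLTR2 by 2.36 ± 0.13.

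The prostaglandin-degrading HPGD just missed the limit on p, at 1.19 ± 0.215 TPM at 24 h and 3.41 ± 0.269 TPM at 48 h (log2 fold change 1.55 ± 0.16 (SE), adjusted p = 0.00011). LTA4H (0.55), ALOX5 (0.41) and LTB4R (0.37), of leukotriene B4 synthesis and sensing, were higher at an adjusted p under 0.05. The receptors PTGER2 (-0.76) and CYSLTR1 (-0.44), the synthase PTGES2 (-0.37) and the phospholipase PLA2G4A (-0.19) were lower. Without replicate 1 or 3 of 24 h or replicate 2 of 48 h, 3 calls were made in place of 5. PTGER4, TBXAS1, PTGES3 and LTB4R2 lay between -0.17 and 0.18 and did not pass.

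PROCR, the protein C receptor EPCR and a marker of stem cells expanded with UM171, fell slightly in this step. It stood at 48.5, 48.5 and 48.5 TPM at 24 h and 45.3, 41.1 and 36.9 TPM at 48 h (log2 fold change -0.17 ± 0.06 (SE), adjusted p = 0.042). PROCR was lower in each 48 h library than in any 24 h library, and lowest in replicate 3 of 48 h. How many of all tested genes shared this lack of overlap was not counted. The mean of PROCR was 3.68 TPM in DMSO, 11.8 TPM at 6 h and 29.7 TPM at 72 h. Its list of protein C and coagulation genes held 3 calls among 13 tested, with 6 higher and 2 lower at an adjusted p under 0.05. Leaving out 1 library gave 2 calls, except that 3 were made without replicate 3 of 48 h. SERPINB2, an inhibitor of urokinase, stood at 42.5, 37.8 and 40 TPM at 24 h and 128, 127 and 97.6 TPM at 48 h (log2 fold change 1.62 ± 0.07 (SE), adjusted p = 5.4e-07). PROS1, the protein S cofactor of activated protein C, stood at 34.2, 32.4 and 35.8 TPM at 24 h and 78.8, 87.8 and 61.6 TPM at 48 h (log2 fold change 1.24 ± 0.07 (SE), adjusted p = 3.1e-06), and F13A1, a transglutaminase that crosslinks fibrin, changed by 1.01 ± 0.09.

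In that list TFPI (0.84) and PLAUR (0.66) were also higher at an adjusted p under 0.05, and the thrombin receptor F2RL3 was lower, at 0.603 ± 0.0503 TPM at 24 h and 0.103 ± 0.0643 TPM at 48 h (log2 fold change -2.35 ± 0.32 (SE), adjusted p = 0.00051). THBD, F3, F2R, PLAU and ANXA5 lay between -0.16 and 0.16 and did not pass. The list of protease inhibitors, which shares SERPINB2, held 4 calls among 16 tested, with 12 higher and 1 lower at the looser limit. A2M, a broad protease trap, stood at 4.27, 2.73 and 5.45 TPM at 24 h and 47.8, 47.6 and 34.3 TPM at 48 h (log2 fold change 3.31 ± 0.20 (SE), adjusted p = 4.4e-06). SERPINA1, the inhibitor of neutrophil elastase, stood at 4.15, 4.0 and 5.6 TPM at 24 h and 37.5, 37.2 and 25.5 TPM at 48 h (log2 fold change 3.00 ± 0.13 (SE), adjusted p = 7.6e-07), and TIMP1, an inhibitor of metalloproteases, rose from 240.0 to 636 TPM (1.55 ± 0.07).

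Monocyte and macrophage markers rose in a subset. Of 30 listed, 18 were tested, 5 were called and 11 were higher and 2 lower at an adjusted p under 0.05, with a median of 0.43. ITGAX (CD11c) stood at 8.76, 8.49 and 11.7 TPM at 24 h and 31.8, 33.5 and 27.2 TPM at 48 h (log2 fold change 1.85 ± 0.09 (SE), adjusted p = 1.0e-06). FCGR2A, a low-affinity IgG receptor, stood at 142, 137 and 153 TPM at 24 h and 343, 339 and 357 TPM at 48 h (log2 fold change 1.35 ± 0.07 (SE), adjusted p = 1.6e-06), and the high-affinity receptor FCGR1A, which has near-identical copies in the genome, changed by 1.77 ± 0.14. FCGR2A and FCGR1A were also high in DMSO (331 TPM and 147 TPM), and the 24 h mean was the lowest of the 5 groups for both. ITGAM (CD11b, 1.23 ± 0.07) and the beta-glucan receptor CLEC7A (1.10 ± 0.10) completed the called set, whereas CD14 had means of 0.0767 and 0.0567 TPM and C1QA, C1QB and C1QC were at 0. There were 3 calls without replicate 1 of 24 h or replicate 2 of 48 h.

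LYZ, the most abundant of these genes, stood at 1304 ± 118 TPM at 24 h and 1282 ± 114 TPM at 48 h (log2 fold change 0.06 ± 0.07 (SE), adjusted p = 0.5). Of the costimulatory and adhesion genes, 3 of 27 tested were called and 20 were higher at the looser limit, with ITGB3, the platelet and macrophage beta 3 integrin, at 0.31 ± 0.123 TPM at 24 h and 1.66 ± 0.501 TPM at 48 h (log2 fold change 2.48 ± 0.24 (SE), adjusted p = 6.8e-05). CD86, the costimulatory ligand, changed by 0.36 ± 0.09 from 7.13, 9.44 and 8.88 TPM to 9.92, 9.84 and 10.2 TPM (adjusted p = 0.011). Its groups did not overlap, with a highest 24 h value of 9.44 TPM and a lowest 48 h value of 9.84 TPM. How many of all tested genes shared this was not counted. In the erythroid and megakaryocyte list, 23 of 31 genes were not tested, most of them globin, glycophorin and platelet genes near 0, and ITGA2B, the platelet integrin alpha IIb, was the only call, lost without replicate 1 or 2 of either time (log2 fold change 1.61 ± 0.12 (SE), adjusted p = 1.5e-05). Among neutrophil granule genes MS4A3 was the single call of 11 tested (1.17 ± 0.09), and MPO (-0.57), BPI (-1.38) and RNASE3 (-0.65) were lower at the looser limit. The MS4A3 call was lost without replicate 2 of 24 h or replicate 1 or 2 of 48 h.

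The 25 genes that fell included the best-known targets of the aryl hydrocarbon receptor. CYP1A1, a cytochrome of polycyclic hydrocarbon metabolism, stood at 8.58, 7.53 and 6.38 TPM at 24 h and 1.13, 0.63 and 0.68 TPM at 48 h (log2 fold change -3.21 ± 0.16 (SE), adjusted p = 1.2e-06). Its mean was 0.51 TPM in DMSO, 0.667 TPM at 6 h and 1.08 TPM at 72 h. TIPARP, an ADP-ribosyltransferase that restrains the receptor, stood at 43.5, 45.9 and 48.2 TPM at 24 h and 19.8, 22.4 and 16.3 TPM at 48 h (log2 fold change -1.18 ± 0.05 (SE), adjusted p = 7.6e-07), and CYP1B1, a related cytochrome, at 69.1, 62.9 and 80.1 TPM at 24 h and 34, 37.6 and 25.1 TPM at 48 h (log2 fold change -1.06 ± 0.10 (SE), adjusted p = 5.8e-05). In each of the 3 genes the mean at 24 h was the highest of the 5 groups.

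AHRR, the repressor of the receptor, stood at 35.8, 34.9 and 37.6 TPM at 24 h and 17.3, 16.3 and 12.1 TPM at 48 h (log2 fold change -1.21 ± 0.07 (SE), adjusted p = 3.0e-06), and its mean was highest at 6 h (48.1 TPM). NQO1, a quinone reductase that responds to this receptor and to NRF2, stood at 45.5, 47.5 and 38.8 TPM at 24 h and 16.9, 19.3 and 12.1 TPM at 48 h (log2 fold change -1.41 ± 0.10 (SE), adjusted p = 8.9e-06) and its mean was lowest at 72 h (4.69 TPM). The receptor AHR was itself lower, at 73.7 ± 6.09 TPM at 24 h and 56.1 ± 3.95 TPM at 48 h (log2 fold change -0.37 ± 0.07 (SE), adjusted p = 0.002), as was NFE2L2, which encodes NRF2 (-0.33 ± 0.05), while ARNT, the partner of the receptor, changed by 0.12 ± 0.08 (adjusted p = 0.24). On a list of 16 pathway genes drawn up after these values were seen, which is therefore a description, 11 were tested, 5 were called lower and 1 higher (LRP1, 1.51). Without replicate 1 of 24 h or replicate 1 of 48 h, 3 were called lower. GCGTG, the core of the element the receptor binds, was found in the 250-base windows of 3 of the 5 called genes of this list that have a window. Those 5 leave out CYP1B1 and take in LRP1, which rose. The same letters were in 32.2% of all windows. GCGTG was also in 5 of the 6 windows of the called cholesterol genes.

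**Figure D4:**
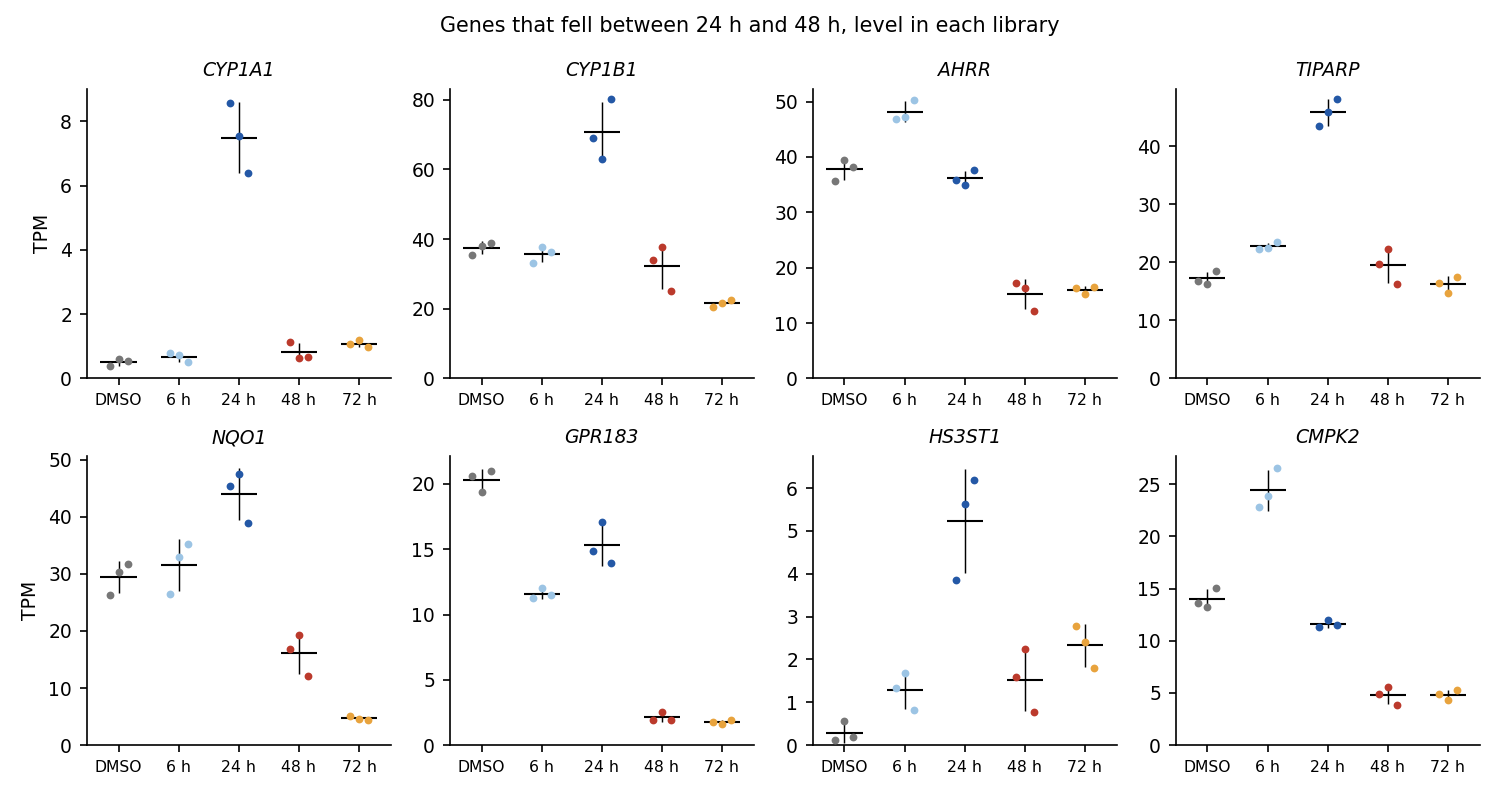
Each point is 1 library, with its TPM on a linear axis from 0 for 8 genes that fell, and lines give the mean and SD of 3 libraries. CYP1A1, CYP1B1, TIPARP and HS3ST1 peak at 24 h (blue), whereas GPR183 is highest in DMSO and CMPK2 and AHRR at 6 h.

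Other genes that fell were not on that pathway list, and whether the receptor acts on them was not tested. GPR183, the oxysterol receptor that guides lymphocytes and dendritic cells, stood at 14.9, 17.1 and 13.9 TPM at 24 h and 1.94, 2.56 and 1.92 TPM at 48 h (log2 fold change -2.80 ± 0.12 (SE), adjusted p = 7.6e-07), and its mean was 20.3 TPM in DMSO, 11.6 TPM at 6 h and 1.76 TPM at 72 h. HS3ST1, which modifies heparan sulfate, stood at 3.86, 5.63 and 6.18 TPM at 24 h and 1.58, 2.24 and 0.77 TPM at 48 h (log2 fold change -1.47 ± 0.09 (SE), adjusted p = 3.9e-06). The mean of HS3ST1 in DMSO was 0.287 TPM. NOG, the BMP antagonist noggin, changed by -1.18 ± 0.09, the zinc finger factor ST18 by -1.53 ± 0.11, the ubiquitin ligase RNF144A by -1.18 ± 0.05, EEPD1 by -1.29 ± 0.09 and GSG1 by -1.22 ± 0.10.

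FLT3, the receptor tyrosine kinase of early progenitors, was the single call among 25 stem and progenitor factors tested and among 27 growth factor and cytokine receptors. It stood at 4.08, 4.02 and 4.05 TPM at 24 h and 1.51, 1.66 and 1.45 TPM at 48 h (log2 fold change -1.27 ± 0.09 (SE), adjusted p = 1.1e-05). The groups did not overlap, as for every called gene, but the call in both lists was made in 1 leave-one-out fit of the 6, that without replicate 3 of 48 h. BMF, a BH3-only death inducer, stood at 18.5, 22.6 and 20.7 TPM at 24 h and 9.88, 9.17 and 10.6 TPM at 48 h (log2 fold change -1.05 ± 0.10 (SE), adjusted p = 5.3e-05), while BCL2A1, an NF-kB-driven survival member of the same family, rose from 4.05, 4.34 and 5.09 TPM to 20.4, 21.5 and 16.2 TPM (log2 fold change 2.16 ± 0.12 (SE), adjusted p = 2.2e-06). The fall of BMF was also called in that leave-one-out fit alone. A transcript without a symbol, ENSG00000254692, a readthrough gene on chromosome 14 named here because it had the lowest fitted log2 fold change, had 163, 156 and 104 counts at 24 h and 0 in each 48 h library. It was at least 33.4-fold lower, taking 3 counts in the shallowest 48 h library as the limit.

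Interferon-stimulated genes split. Of 36 listed, 32 were tested, 1 was called higher and 1 lower, and 7 were higher and 10 lower at an adjusted p under 0.05, with a median of -0.11. The share that was higher is near the 20.7% of all genes tested, and the share that was lower is above the 18.2%. Between 8 and 10 were lower at that limit when 1 library was left out. RSAD2 (viperin) stood at 3.2, 3.01 and 2.41 TPM at 24 h and 0.81, 1.26 and 0.76 TPM at 48 h (log2 fold change -1.77 ± 0.13 (SE), adjusted p = 1.4e-05), and CMPK2, its genomic neighbour and a mitochondrial nucleotide kinase, stood at 11.3, 12 and 11.5 TPM at 24 h and 4.93, 5.6 and 3.85 TPM at 48 h (log2 fold change -1.22 ± 0.07 (SE), adjusted p = 3.0e-06). IFI44 (-1.72), OAS2 (-1.79), IFI44L (-2.04), OAS1 (-1.10) and IFIT1 (-0.97) fell at the looser limit, all from means under 3 TPM. GBP2, a guanylate-binding protein, rose, at 65.8, 53.6 and 66.4 TPM at 24 h and 132, 143 and 148 TPM at 48 h (log2 fold change 1.07 ± 0.08 (SE), adjusted p = 1.3e-05), and STAT2 was higher (0.52 ± 0.07). ISG15 changed by -0.02 and did not pass. Without replicate 1 or 3 of 24 h or replicate 1 of 48 h, 4 genes were higher at the looser limit, and without replicate 2 of 24 h 3. Without replicate 1 or 2 of 24 h or replicate 2 of 48 h, 0 genes passed both limits, and without replicate 1 of 48 h 0 were called lower.

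Genes of cell division were lower by small amounts in most of the group. None of 46 tested DNA replication genes passed both limits, but 39 were lower and none higher at an adjusted p under 0.05 (18.2% of all genes tested were lower), with a median of -0.27. PCNA, the sliding clamp, stood at 392 ± 20.3 TPM at 24 h and 265 ± 44.9 TPM at 48 h (log2 fold change -0.51 ± 0.07 (SE), adjusted p = 0.00047), and RRM1, a ribonucleotide reductase subunit, fell from 135 to 87.1 TPM (-0.52 ± 0.05). Of 40 genes of G2 and mitosis, 34 were lower and none higher, with a median of -0.30. CCNB1, the mitotic cyclin, fell from 187 to 119.8 TPM (log2 fold change -0.58 ± 0.06 (SE), adjusted p = 7.1e-05), and TOP2A from 255 to 200.4 TPM (-0.24 ± 0.05), while MKI67 changed by -0.22 ± 0.11 (adjusted p = 0.14). Leaving out 1 library gave between 29 and 40 lower replication genes and between 26 and 38 lower mitotic genes. Both counts were lowest without replicate 2 of 24 h and highest without replicate 3 of 48 h.

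Of 35 proteasome subunits tested, 32 were lower at an adjusted p under 0.05 and all 35 had a negative value, between -0.50 and -0.12, with a median of -0.34. PSMB4, a subunit of the catalytic core, stood at 558 ± 12.4 TPM at 24 h and 395 ± 69.5 TPM at 48 h (log2 fold change -0.45 ± 0.07 (SE), adjusted p = 0.001). Ribosome biogenesis genes followed, with 29 of 39 lower and 4 higher and a median of -0.28. NPM1, a nucleolar chaperone, fell from 3399 to 2627 TPM (-0.30 ± 0.06), but MYC, which drives that program, was slightly higher, at 305 ± 5.49 TPM at 24 h and 353 ± 21.4 TPM at 48 h (log2 fold change 0.26 ± 0.08 (SE), adjusted p = 0.025).

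Nuclear genes of the respiratory chain were lower in 35 of 76 cases with none higher (median -0.15), with ATP5F1B at 739.6 ± 26.5 TPM at 24 h and 607 ± 78.6 TPM at 48 h (-0.30 ± 0.09), and ribosomal protein genes in 19 of 79, a share near the 18.2% of all genes tested that were lower (median -0.11), with RPL41 at -0.07 ± 0.06. Both counts depended on the libraries. Without replicate 1 of 24 h they were 18 and 5, without replicate 2 of 24 h 12 and 1, without replicate 3 of 24 h 26 and 10, and without replicate 3 of 48 h 40 and 34. The mitochondrially encoded messages had a median of 0.43, with 1 of 13 higher at an adjusted p under 0.05, and that median was 0.14 without replicate 3 of 48 h, the library with the high mitochondrial share. Without that library 5 were higher and 2 lower, without replicate 1 of 48 h 4 and 1, without replicate 2 of 48 h 7 and 0, and without any 1 of the 24 h libraries 0 and 0. MT-ATP8, the most abundant of them, stood at 24972, 19878 and 17191 TPM at 24 h and 20481, 23218 and 38117 TPM at 48 h and overlaps MT-ATP6 on the same strand.

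**Figure D5:**
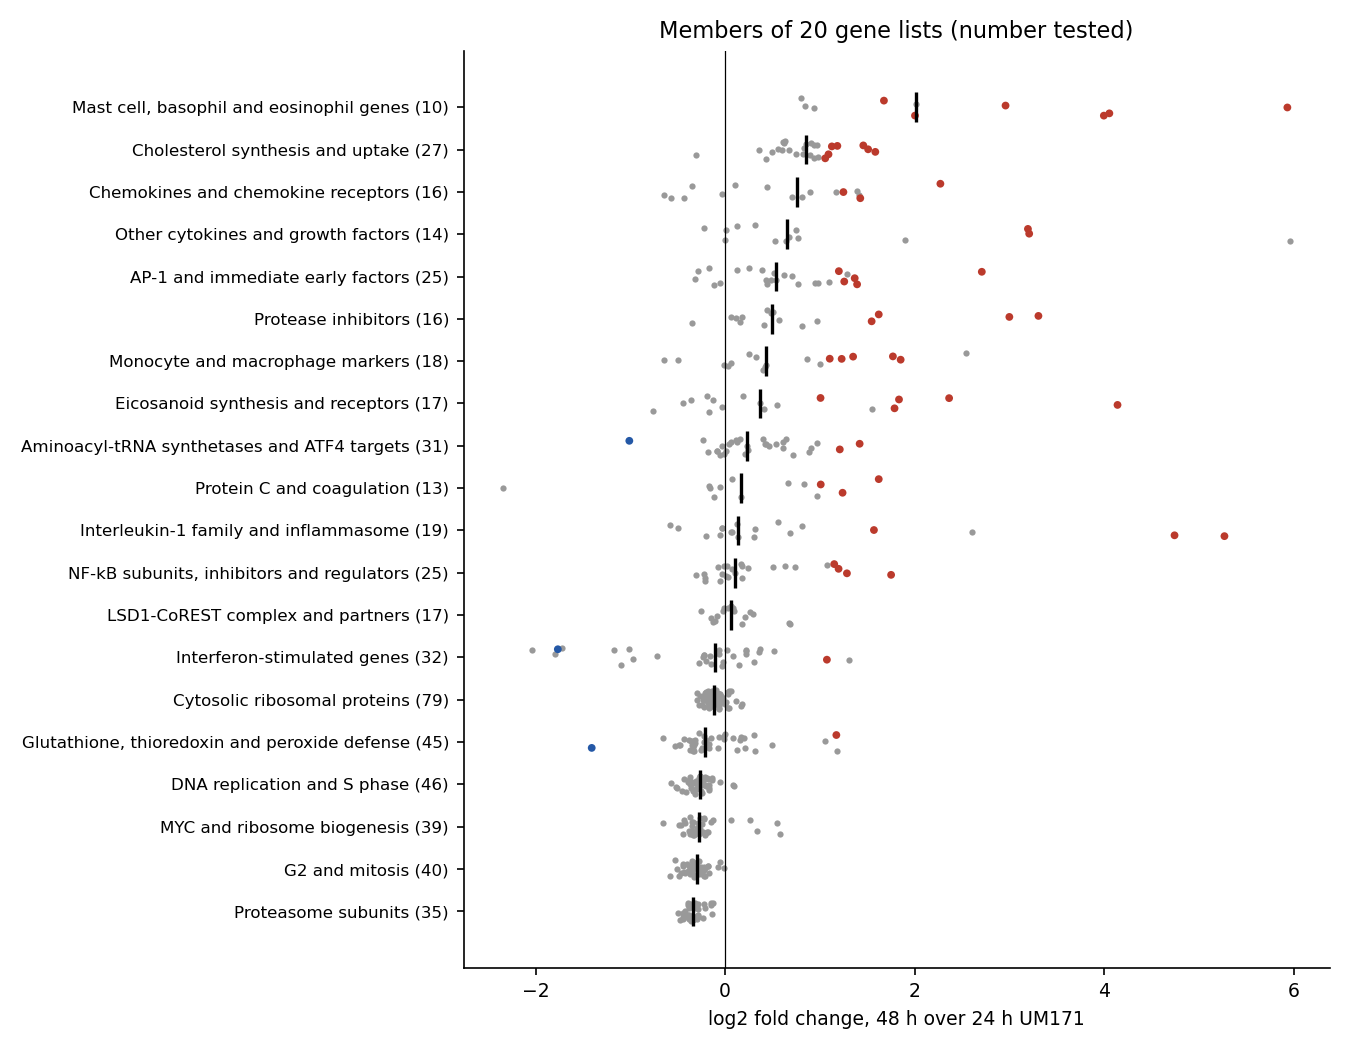
Each point is 1 tested member of 20 gene lists, with its log2 fold change (48 h over 24 h) on the x axis, red or blue where it passed both limits, and the bar is the median of the list. Mast cell and cholesterol genes lie to the right and proteasome, mitotic and replication genes form a narrow band just left of 0.

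Genes of stress and metabolism gave a mixed picture. Of 31 tRNA synthetase and ATF4 target genes 2 rose past both limits, 1 fell, and 18 were higher and 2 lower at the looser limit. DDIT4, an inhibitor of mTORC1, stood at 30.4, 32.5 and 43.8 TPM at 24 h and 85.3, 109.6 and 74.1 TPM at 48 h (log2 fold change 1.42 ± 0.13 (SE), adjusted p = 5.2e-05), and CHAC1, which degrades glutathione, changed by 1.21 ± 0.12. Without replicate 1 or 2 of 24 h or replicate 1 or 2 of 48 h, 0 of these genes rose past both limits. ATF5, a factor of the same stress response, fell (log2 fold change -1.01 ± 0.08 (SE), adjusted p = 2.4e-05), a call made in 1 leave-one-out fit of the 6, that without replicate 3 of 48 h. In the glycolysis and hypoxia list 3 of 31 were called and 14 were higher at the looser limit. SLC2A3, the glucose transporter GLUT3, stood at 58.8, 62.8 and 88 TPM at 24 h and 232, 237 and 169 TPM at 48 h (log2 fold change 1.71 ± 0.12 (SE), adjusted p = 1.0e-05), and the circadian and hypoxia factor BHLHE40 changed by 1.34 ± 0.10. The isozyme ALDOC changed by 2.38 ± 0.18, yet it stood at 196 TPM in DMSO and 227 TPM at 6 h against a mean of 8.9 TPM at 24 h and 40.8 TPM at 48 h, and the 24 h mean was the lowest of the 5 groups. Without replicate 1 of 24 h or replicate 2 of 48 h no gene of this list passed both limits.

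Of 33 heat shock and chaperone genes 3 were called. HSPA1A stood at 30.7, 28.7 and 28 TPM at 24 h and 73, 74.3 and 71.8 TPM at 48 h (log2 fold change 1.36 ± 0.06 (SE), adjusted p = 7.6e-07), and its mean was 128 TPM in DMSO, 129 TPM at 6 h and 19.5 TPM at 72 h. Its near-identical copy HSPA1B changed by 0.66 ± 0.07, HSPA6 by 1.99 ± 0.13 and the cochaperone DNAJB2 by 1.01 ± 0.08, and without replicate 1 of 24 h there was 1 call. At the looser limit 14 were higher and 10 lower, and of the chaperonin genes listed, TCP1 and CCT2 to CCT8, only CCT8 was not lower. Without replicate 1 or 2 of 24 h or replicate 1 of 48 h, 3 were lower.

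Of 43 lysosome and proton pump genes, 3 were called and 17 were higher and 3 lower at the looser limit. ATP6V0D2, a pump subunit of osteoclasts and macrophages, stood at 0.06, 0.07 and 0.31 TPM at 24 h and 3.52, 3.89 and 2.48 TPM at 48 h (log2 fold change 5.5 ± 0.32 (SE), adjusted p = 3.0e-06). NPC1, the lysosomal cholesterol exporter, stood at 82.1, 84.2 and 111 TPM at 24 h and 214, 227 and 170.3 TPM at 48 h (log2 fold change 1.22 ± 0.10 (SE), adjusted p = 2.7e-05), and the protease CTSL changed by 1.01 ± 0.06. Without replicate 2 of 48 h there was 1 call.

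Genes of glutathione, thioredoxin and peroxide defense were mostly lower. Of 45 tested, 26 were lower and 8 higher at an adjusted p under 0.05, with NQO1 called lower and TXNIP higher and a median of -0.21. SOD1, the cytosolic superoxide dismutase, stood at 349.9, 341 and 327 TPM at 24 h and 256, 276 and 266 TPM at 48 h (log2 fold change -0.28 ± 0.07 (SE), adjusted p = 0.014). PRDX1, a peroxiredoxin, fell from 857 to 627 TPM (log2 fold change -0.48 ± 0.08 (SE), adjusted p = 0.0014), and SLC7A11, the cystine importer, from 14.2 to 8.67 TPM (log2 fold change -0.65 ± 0.06 (SE), adjusted p = 5.3e-05). TXNIP, which binds and inhibits thioredoxin, rose, at 36.3, 35.5 and 41 TPM at 24 h and 88.1, 91.1 and 76.5 TPM at 48 h (log2 fold change 1.17 ± 0.06 (SE), adjusted p = 2.1e-06), and reached 341 TPM at 72 h. Without replicate 1 of 24 h or replicate 1 of 48 h, 0 genes of this list were called lower. HMOX1, the heme oxygenase, changed by 1.05 ± 0.13 (adjusted p = 0.0003).

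The subunits of LSD1-CoREST and its partners, the complex toward which UM171 is directed, changed little at the RNA level. None of 17 tested was called, 5 were higher and 2 lower at an adjusted p under 0.05, and their median was 0.06. Over all genes tested, 20.7% were higher and 18.2% lower at that limit. PHF21A, a histone-reading subunit, had the largest change of those that passed, at 22.6 ± 1.36 TPM at 24 h and 33.1 ± 4.21 TPM at 48 h (log2 fold change 0.68 ± 0.12 (SE), adjusted p = 0.0021). RCOR1 (0.18), KDM1B (0.30), GSE1 (0.27) and ZMYM3 (0.21) were the others that were higher, and KBTBD4 (-0.26) and HDAC1 (-0.15) were lower. KDM1A, which encodes LSD1, stood at 96.2 ± 0.89 TPM at 24 h and 86.1 ± 7.07 TPM at 48 h (log2 fold change -0.08 ± 0.05 (SE), adjusted p = 0.19), and the 10 members that did not pass, among them KDM1A, HDAC2, RCOR2, RCOR3, GFI1, REST, ZMYM2 and MIER1, lay between -0.13 and 0.68. Without replicate 1 or 2 of 24 h, 2 genes were higher and 0 lower at the looser limit, and without replicate 1 of 48 h 0 were lower.

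Markers of unrelated cells were examined for the same step. Of 20 markers of T, B and NK cells, 8 were tested and 1 was called, CD3D, a chain of the T cell receptor complex, at 5.31, 6.7 and 7.83 TPM at 24 h and 16.2, 18.8 and 13.3 TPM at 48 h (log2 fold change 1.33 ± 0.12 (SE), adjusted p = 5.2e-05), a call made in 1 leave-one-out fit of the 6, that without replicate 3 of 48 h. In the same list CD3E was under 0.1 TPM and CD3G, CD8B, CD5, MS4A1 and KLRB1 were at 0. Their summed level was 97.2 to 114 TPM at 24 h and 137 to 145 TPM at 48 h, most of it from NCAM1, CD79A, TRAC and NKG7. Of 16 stromal, endothelial and hepatic markers, 5 were tested and COL3A1 was called (2.55 ± 0.18, from 0.323 to 1.87 TPM), a call lost without replicate 1 of 24 h or replicate 1 or 2 of 48 h, with LUM, CDH5, KDR, CLDN5, TTR and AFP at 0 and a summed level of 32.5 to 33.3 TPM at 24 h and 30.2 to 39.6 TPM at 48 h. Of 21 keratin and epithelial genes, 5 were tested and KRT15 was called, at 1.51, 0.92 and 1.77 TPM at 24 h and 17.6, 18.1 and 13.6 TPM at 48 h (log2 fold change 3.34 ± 0.16 (SE), adjusted p = 1.0e-06). At an adjusted p under 0.05, 5 of the 8 tested T, B and NK markers were higher, with a median log2 fold change of 0.75. Of the stromal, endothelial and hepatic markers 4 of 5 were higher, with a median of 1.36. Of the keratin and epithelial genes 2 of 5 were higher, with a median of 0.43. None in these lists was lower at that limit, and 20.7% of all genes tested were higher. The part of other cells in these results was not tested.

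MHC class I genes had 0 calls of 19 tested. At an adjusted p under 0.05, 3 were higher and 2 lower, smaller shares than the 20.7% and 18.2% of all genes tested. B2M, the light chain, was among the higher genes, at 3390.1 ± 90.6 TPM at 24 h and 4001 ± 228 TPM at 48 h (log2 fold change 0.27 ± 0.06 (SE), adjusted p = 0.0057). MHC class II genes had 0 calls of 14 tested, with CD74 at -0.07 ± 0.09 and HLA-DRA lower at 156 ± 7.47 TPM at 24 h and 101 ± 5.03 TPM at 48 h (log2 fold change -0.56 ± 0.06 (SE), adjusted p = 9.0e-05). CDK inhibitors and G1 cyclins had 0 of 22, with CDKN1A at -0.04 ± 0.06 (adjusted p = 0.65), histone genes 0 of 19, with H2AZ1 at -0.44 ± 0.13, S100 genes 0 of 9, with S100A4 at -0.37 ± 0.11, and neuronal genes with REST sites 0 of the 6 that were tested, with TUBB3 at 0.42 ± 0.11. Pattern recognition receptors had CLEC7A as the only call of 23, lost without replicate 1 or 2 of either time, and at the looser limit 10 were higher and 5 lower, the endosomal receptor TLR9 among the latter (-2.25).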

How the data were processed

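Poly(A) RNA from OCI-AML5 cells was sequenced, and the deposited expected counts and TPM per gene were used as the authors gave them. Per the labels' processing notes, the authors used CASAVA 1.8.2, Trimmomatic 0.35, STAR 2.5.1b and RSEM 1.2.28 on GRCh38; the gene annotation and strand setting of that run are not given in the sources used here. RSEM divides reads that fit several genes among them, so expected counts of near-identical genes are uncertain. The deposited TPM values, which RSEM scales for transcript length and depth, were used as levels.

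Expected counts of the 3 UM171 48 h and 3 UM171 24 h libraries were rounded and tested in edgeR 4.0.16 (R 4.3.3) with TMM factors, filterByExpr, and the quasi-likelihood test without covariates. P-values were adjusted by the Benjamini-Hochberg method over 15417 genes. Calls needed both a change of more than 2-fold and an adjusted p below 0.0001, limits the study states for its comparisons with untreated or DMSO cells. SE was derived from the F statistic of the test. A block by replicate number, DESeq2 1.42.0, limma 3.58.1 on log2(TPM + 1) or log2(TPM + 0.1), other scalings, filters, sample sets, GC and transcript length offsets and each left-out library were tried as alternatives. On simulated data of 15417 genes with 200 changed by 2 on the log2 scale, edgeR recovered 194, DESeq2 197 and limma 184. The changed genes were drawn only from those above a minimum mean level, so genes below it and changes near the 2-fold limit were not covered.

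The 46 gene lists, the members and the comparison were chosen with earlier results of these data known, and the list of aryl hydrocarbon receptor genes was drawn up after its values were seen. Lists were described by counts and medians, with no test of a list. Named were the 12 largest rises and 12 largest falls of protein-coding genes past both limits with at least 5 TPM in the higher group and no overlap between groups; 8 genes the study uses for this line; up to 3 called members of each list with at least 1 TPM, or otherwise its most abundant member; all tested members of the NF-kB, interleukin-1, eicosanoid, LSD1-CoREST and protein C lists; and up to 5 called genes with a mean under 0.1 TPM in 1 group. Some members that this rule names are not reported here. Further list members given in the text were chosen after their values were seen. Symbols were taken from GENCODE 44, and promoter windows are the 250 bases before the start in RefSeq, GRCh38.p14; motifs were chosen after windows had been searched. A limit of 3 counts was used for 0 counts and, like counting error generally, covers no other error.

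Levels in DMSO and at 6 h and 72 h are means of 3 libraries each and entered no test. Python 3.11.15, pandas 2.3.3, numpy 2.4.6 and matplotlib 3.10.9 made the tables and plots.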

Additional observations from a re-analysis of the deposited data

How the results depend on the processing

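The 276 called genes kept their direction wherever they were tested in the 21 refitted alternatives (253 of them with at least 10 counts in every library, all 276 in the others), and in the edgeR and DESeq2 fits those tested kept an adjusted p under 0.05, but how many passed both limits moved. DESeq2 called 437 genes (391 higher, 46 lower), limma on log2(TPM + 1) called 31 (28 and 3) and on log2(TPM + 0.1) 32 (29 and 3); the cause was not tested. No filter on low counts gave 604 (512 and 92), all 15 libraries without a clone in the fit 472 (416 and 56), and the 12 UM171 libraries 452 (402 and 50). An adjusted p under 0.05 alone gave 5989 (3188 and 2801), the same p with a 2-fold change 827 (677 and 150), and an adjusted p under 0.0001 alone 499 (429 and 70).

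Leaving out 1 library gave between 106 and 324 called genes, 97 to 292 of them higher and 9 to 32 lower. Without replicates 1, 2 and 3 of 24 h there were 106, 140 and 175, without replicates 1 and 2 of 48 h 130 and 128, and without replicate 3 of 48 h 324. Upper quartile and RLE scaling each called 273 genes, total count scaling 222, at least 10 counts in every library 279, GC offsets 253, transcript length offsets 260, and leaving out mitochondrial genes 281, all within 1.5 times the reported count.

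Deviations of same-numbered libraries had correlations of -0.08, -0.00 and 0.06, and those of other pairs lay between -0.07 and 0.09. The labels do not say whether same-numbered libraries were paired, and these values cannot settle it. A fit with a replicate block called 158 genes (141 higher, 17 lower), and with GC offsets besides 124 (110 and 14). Among named genes, 23 of 190 had the opposite sign in at least 1 alternative, none of them with an adjusted p under 0.05 in the reported fit. RPL41 was at 0.013 with transcript length offsets, against -0.07 as reported. With 1 library left out, CD74 lay between -0.19 (without replicate 3 of 48 h) and 0.019 (without replicate 2 of 48 h), and CDKN1A between -0.096 (without replicate 1 of 48 h) and 0.0061 (without replicate 3 of 48 h), against -0.07 and -0.04. The cause was not tested. With 3 libraries a group, small changes and genes near the floor of 3 counts are limited by both spread and depth.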
